A study of Homo sapiens with 6 samples.

Results

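The let-7 and miR-98 family was followed through small RNA libraries of HEK293T, a line of human embryonic kidney cells, after knockdown (KD) of the ribosomal protein RPL24. The 9 members were chosen by name, as the 5p mature miRs let-7a, let-7b, let-7c, let-7d, let-7e, let-7f, let-7g, let-7i and miR-98, out of 2588 miR names in the count table. There were 3 libraries of cells given siPOOLs (mixtures of many siRNAs) against RPL24 and 3 negative control (NC) libraries of cells given non-targeting siPOOLs, both at 50 nM and harvested at 72 h. Per the labels, cells were also transfected, 48 h into the siPOOL treatment, with a plasmid encoding miR-608, while the study's text calls the sequenced cells a separate experiment, and miR-608 itself had 0 counts in all 6 libraries. The study asked by this comparison whether RPL24 alters miRs other than miR-608.

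Let-7 miRs are among the most conserved animal miRs. Their level is low in early embryonic cells and rises as cells differentiate, and they silence mRNAs of growth and cell cycle regulators such as RAS family genes, HMGA2 and MYC. Maturation of many let-7 precursors is blocked by the RNA-binding proteins LIN28A and LIN28B. LIN28A binds the terminal loop and directs the addition of a uridine tail. DROSHA cuts the hairpin from the primary transcript, DICER removes the loop, and the 5p arm is the strand that Argonaute mostly keeps.

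All 9 mature sequences were found in RefSeq on GRCh38.p14. They are shown because the members are told apart in sequencing by only a few bases outside the seed. Each is written 5′ to 3′ with the prefix hsa for human, and with the seed, bases 2 to 8, in capitals.

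hsa-let-7a-5p: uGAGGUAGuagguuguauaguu
hsa-let-7b-5p: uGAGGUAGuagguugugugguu
hsa-let-7c-5p: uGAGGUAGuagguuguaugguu
hsa-let-7d-5p: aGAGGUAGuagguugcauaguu
hsa-let-7e-5p: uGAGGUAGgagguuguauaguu
hsa-let-7f-5p: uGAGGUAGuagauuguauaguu
hsa-let-7g-5p: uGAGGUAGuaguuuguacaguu
hsa-let-7i-5p: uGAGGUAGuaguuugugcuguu
hsa-miR-98-5p: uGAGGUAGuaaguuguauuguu

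The seed, which pairs with target mRNAs, was identical in all 9, and each member was 22 nt long. Counted from the 5′ end with let-7a as the reference, let-7e differed by U9G, let-7f by G12A and let-7c by A19G alone. Let-7g carried G12U and U18C, and let-7i, which differed most from let-7a, carried G12U, A17G, U18C and A19U. Of the 36 pairs of members, 4 were 1 base apart (let-7a with let-7c, let-7e and let-7f, and let-7b with let-7c), and the largest distance was 6 bases. How reads that fit several members were counted is not stated in the sources used here, so the split of reads between such pairs is uncertain. The column names of the count table carry the word "Unique", whose meaning is not stated either. Outside the family, 2 more miRs had the same seed. MiR-4458 had 2 reads over the 6 libraries and miR-4500 had 0, so the reads with this seed lay almost wholly in the 9 members.

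The members come from 12 hairpin genes, 3 of them for let-7a and 2 for let-7f, and all 12 had the same span in RefSeq and GENCODE 29 on GRCh38. MIRLET7A1 (chr9:94175957-94176036), MIRLET7F1 (chr9:94176347-94176433) and MIRLET7D (chr9:94178834-94178920) lie together on the plus strand, in an intron of the lincRNA AL158152.2. MIRLET7A2 (chr11:122146522-122146593, minus strand) is intronic in 8 transcripts of MIR100HG, and MIRLET7C (chr21:16539828-16539911, plus strand) in 13 of MIR99AHG. MIRLET7A3 (chr22:46112749-46112822) and MIRLET7B (chr22:46113686-46113768) overlap an exon of the lincRNA MIRLET7BHG on the plus strand. MIRLET7E (chr19:51692786-51692864, plus strand) is intronic in 1 transcript of SPACA6, and MIRLET7G (chr3:52268278-52268361, minus strand) in 3 of WDR82. MIRLET7I (chr12:62603686-62603769, plus strand) lies in an intron of the lincRNA AC048341.1. MIR98 (chrX:53556223-53556341) and MIRLET7F2 (chrX:53557192-53557274) are intronic in 3 transcripts of HUWE1 on the minus strand.

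The letters GGAG, part of the sites that LIN28 proteins bind, were searched on the RNA strand of each hairpin and were present in 9 of the 12 (75%), against 43.4% of the 1562 hairpins in the RefSeq table. They were absent from the hairpins of let-7a-3, let-7b and miR-98. The letters UGUG, known as a loop motif of primary miRs, were present in 5 of the 12 (41.7%), against 44.3% of all hairpins. Hairpins differ in length, and a match anywhere in the hairpin, mature arms included, was counted.

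Total counts lay between 398721 and 611745 per library. A floor of 3 counts equalled 4.90 to 7.52 CPM (counts scaled by library size), depending on the library. Libraries of the same group differed by more than counting noise, with a chi-square per degree of freedom of 2.50 to 2.84 among RPL24 KD libraries and the larger values of 12 to 21.5 among NC libraries. Nothing in the labels says that libraries of a group came from separate cultures, so p-values measure only the spread between these libraries. Libraries 1 and 2 of each group carry the numbers of their labels, and the third of each group, whose number no label has, is called unnumbered. RPL24 mRNA is not measured in such libraries, so the KD was not checked here. Of 7 miRs known from other cell types, miR-223-3p (blood) and miR-302a-3p (pluripotent cells) had 0 counts, and 4 others (liver, blood, neurons and muscle) had at most 8 counts in a library. The remaining one, the muscle miR-1-3p, had from 104 to 203 counts. The summed level of the 7 lay between 247 and 276 CPM after RPL24 KD and between 337.5 and 385 CPM in NC. Most of it was miR-1-3p, with 241 to 266 CPM after RPL24 KD and 309 to 355 CPM in NC. The log2 fold change of miR-1-3p was -0.40 (adjusted p = 0.0557 in the edgeR test described below). The part of these miRs in the results was not tested.

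The family took between 4.55% and 4.96% of all counts of a library. The share was 4.77% ± 0.0653 (SD, n = 3) in RPL24 KD and 4.71% ± 0.220 (SD, n = 3) in NC, and the Wilson 95% interval of a single library, which covers counting error only, reached at most 0.0653 percentage points to either side. After TMM normalization the summed members had 49463, 48074 and 48311 CPM in RPL24 KD replicate 1, replicate 2 and the unnumbered library. They had 49032, 45999 and 44301 CPM in the corresponding NC libraries. The groups overlapped, since NC replicate 1 lay above 2 of the RPL24 KD libraries, and the log2 ratio of the group means was 0.066. This ratio was 0.0175 with total counts, 0.0209 without the unnumbered NC library and 0.104 without NC replicate 1. The total amount of let-7 and miR-98 reads thus differed between the groups by less than the range of the NC libraries.

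Let-7f, let-7a and let-7g made up from 81.8% to 82.9% of the family's counts in every library. Ordered by mean level over the 6 libraries, let-7f was highest with 14400 CPM, followed by let-7a with 12621 and let-7g with 11993 CPM. Let-7i followed with 3540 CPM, let-7e with 2686, let-7c with 1531, let-7d with 334, miR-98 with 304 and let-7b with 122 CPM. The ranges over libraries overlapped between let-7f and let-7a, between let-7a and let-7g and between let-7d and miR-98, and did not overlap between the other neighbours in this order. Let-7f was nevertheless above let-7a in 6 of 6 libraries, while let-7a was above let-7g in 4 of 6, all 3 RPL24 KD libraries and 1 NC library. Let-7b was thus 118-fold below let-7f. All members are 22 nt long, so no length correction was needed, but the efficiency with which adapters are joined can differ between miRs of different sequence.

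**Figure D1:**
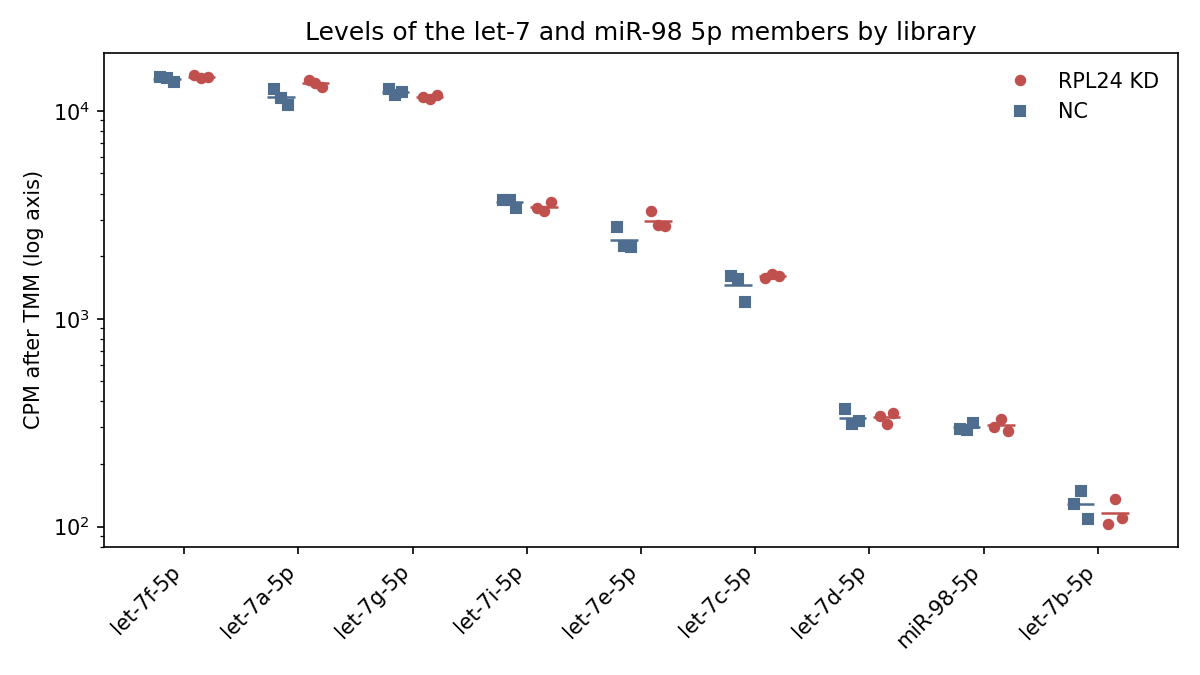
Level of each member in CPM after TMM normalization (log axis), with 1 point per library, circles for RPL24 KD, squares for NC and a line at each group mean (n = 3). Let-7f, let-7a and let-7g lie highest, and the 2 groups are apart for let-7a and let-7e and overlap for the other 7 members.

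Differences between the groups were tested with edgeR (quasi-likelihood) across the 360 miRs that passed its filter on low counts (minimum count 10), with Benjamini-Hochberg adjustment over all of them. All 9 members passed this filter. Differential expression (DE, adjusted p below 0.05) was called for 0 members and for 18 of the 360 miRs (5.00%). DESeq2 (3.90% of all miRs called) and limma-voom (5.83%) also called 0 members. With the default filtering of DESeq2, which left 293 miRs in the adjustment, the adjusted p was 0.0605 for let-7a and 0.0552 for let-7e. Both were just above the threshold, and such values depend on how many miRs enter the adjustment. At an unadjusted p under 0.05 there were 2 members, let-7a and let-7e, or 22.2% of the 9, against 23.6% of all miRs tested. Both were higher in RPL24 KD, a direction in which 11.7% of all miRs passed. Their groups were also the only ones in the family that did not overlap in CPM, 2 of 9 against 27.5% of all miRs. The log2 fold changes of the members had a median of 0.03, against -0.01 over all miRs tested, and 5 of 9 were above 0, against 47.2% of all. Except for the share higher at an unadjusted p under 0.05, which rests on 2 members, these shares lie close to those of all miRs tested.

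The miR hsa-let-7e-5p, which differs from let-7a just past the seed and is encoded on chromosome 19, had the largest log2 fold change of the members. It had 3293, 2824 and 2783 CPM in RPL24 KD replicate 1, replicate 2 and the unnumbered library, and 2772, 2232 and 2211 CPM in the NC libraries in the same order. Every RPL24 KD library lay above every NC library, but the lowest of the former (2783 CPM) stood only just above the highest of the latter (2772 CPM). The means were 2967 ± 284 CPM (SD, n = 3) and 2405 ± 318 CPM (SD, n = 3). The log2 fold change was 0.30 (standard error 0.0965, 95% interval 0.09 to 0.51), with an adjusted p of 0.0778 from edgeR.

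The miR hsa-let-7a-5p, the form conserved without change from worms to humans, had 14007, 13647 and 13089 CPM in RPL24 KD and 12797, 11479 and 10706 CPM in NC, in the same order of libraries. The groups were again apart, with NC replicate 1 nearest to the RPL24 KD libraries. Means were 13581 ± 463 CPM (SD, n = 3) after RPL24 KD and 11661 ± 1058 CPM (SD, n = 3) in NC. The log2 fold change was 0.22 (standard error 0.0676, 95% interval 0.08 to 0.36), with an adjusted p of 0.0729 from edgeR. Over the alternative settings the adjusted p of let-7a ranged from 0.00604 to 0.264 and that of let-7e from 0.000497 to 0.325. Without NC replicate 1, the NC library with the highest level of both, let-7a and let-7e were each DE, with log2 fold changes of 0.29 (adjusted p = 0.0145, edgeR) and 0.42 (adjusted p = 0.0106, edgeR).

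The miR hsa-let-7c-5p, 1 base away from let-7a, had 1565, 1644 and 1611 CPM in RPL24 KD and 1606, 1557 and 1200 CPM in NC. The groups overlapped, and only the unnumbered NC library was clearly lower. Its log2 fold change was 0.15 (standard error 0.100, adjusted p = 0.421, edgeR), and 0.0073 without that library. The coefficient of variation of let-7c was 2.46% in RPL24 KD and 15.2% in NC, and that of let-7a was 3.41% and 9.07%.

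The miR hsa-let-7f-5p, the most abundant member, had 14812, 14472 and 14500 CPM in RPL24 KD and 14552, 14354 and 13710 CPM in NC. It was the most even member across libraries, with a log2 fold change of 0.04 (95% interval -0.08 to 0.15, adjusted p = 0.726, edgeR) that became -0.0095 when libraries were scaled to total counts. The estimate for let-7a, 0.22, lay outside this interval, but the interval of let-7a (0.08 to 0.36) overlapped it.

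The miR hsa-let-7g-5p, from an intron of WDR82, had 11636, 11409 and 11922 CPM in RPL24 KD and 12774, 11912 and 12304 CPM in NC. The groups overlapped narrowly, and the log2 fold change was -0.08 (95% interval -0.20 to 0.04, adjusted p = 0.421, edgeR). The miR hsa-let-7i-5p, which shares the base at position 12 with let-7g, had 3405, 3301 and 3655 CPM in RPL24 KD and 3738, 3717 and 3426 CPM in NC, with a log2 fold change of -0.07 (95% interval -0.22 to 0.08, adjusted p = 0.599, edgeR). In both, 2 of the 3 RPL24 KD libraries lay below every NC library.

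The 3 scarcest members gave the widest intervals. The miR hsa-let-7d-5p, the member that starts with A, spanned 311 to 353 CPM after RPL24 KD and 310 to 369 CPM in NC, with a log2 fold change of -0.0075 (95% interval -0.25 to 0.23) that changed sign under several alternatives. The miR hsa-miR-98-5p ranged from 288 to 329 CPM and from 290 to 317 CPM, with 0.03 (95% interval -0.20 to 0.27), which was -0.0175 with total counts. The miR hsa-let-7b-5p, with 44 to 82 counts per library, ranged from 102 to 136 CPM and from 108 to 148 CPM, with -0.11 (95% interval -0.47 to 0.26). With a standard error of 0.171, let-7b had the widest interval of the 9.

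**Figure D2:**
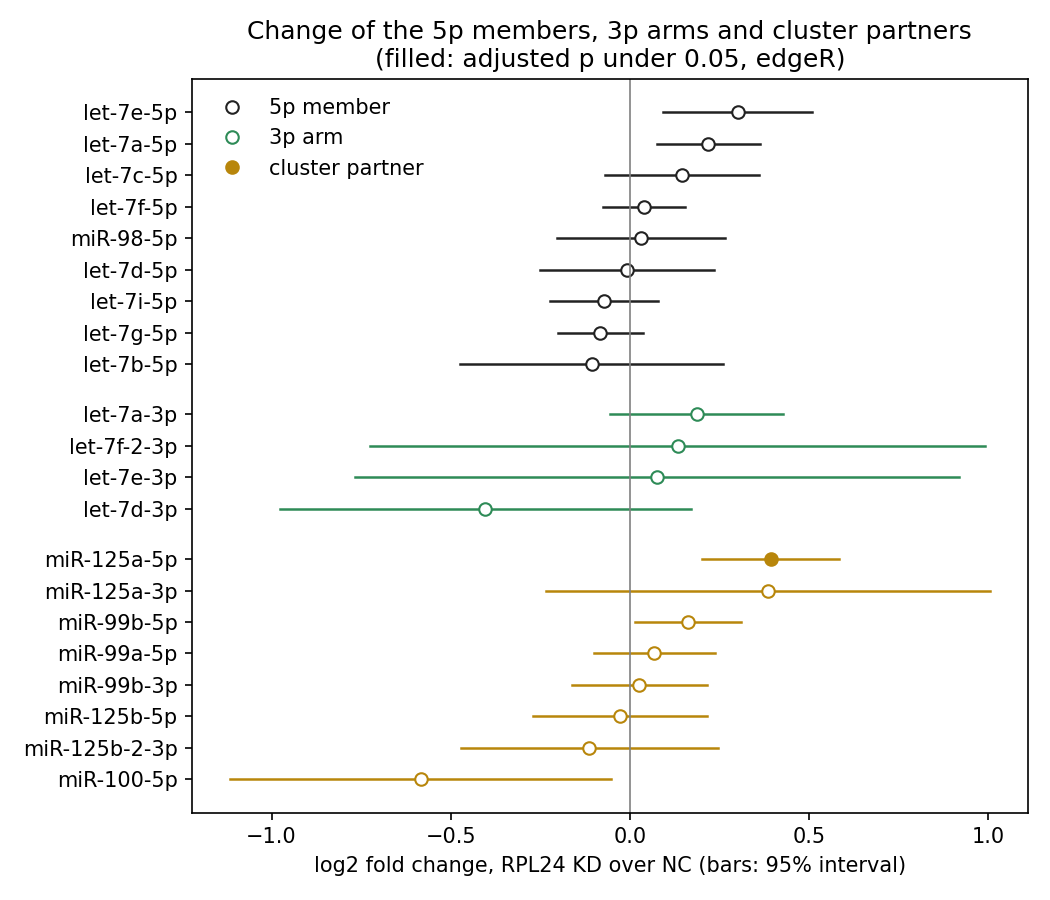
Log2 fold change of RPL24 KD over NC from edgeR for the 9 members, the 4 tested 3p arms and the 8 tested cluster partners, with 95% intervals. Filled points have an adjusted p under 0.05, which holds for miR-125a-5p alone. The intervals of let-7e, let-7a, miR-125a-5p and miR-99b-5p lie above 0, and that of miR-100-5p lies below 0.

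Because the members share a library, the ratio of counts of 2 members within a library needs no normalization. This ratio was taken for all 36 pairs, with 0.5 added to each count. In 11 of the 36 pairs (30.6%) the 3 RPL24 KD libraries did not overlap the 3 NC libraries, against 22.8% of the 64620 pairs among all miRs tested. Most members are more abundant than most miRs tested, so the shares are not matched in depth. The 36 pairs also reuse the same members and are not independent. For each of these pairs the exact permutation p (two-sided) was 0.1, the minimum with 3 libraries a group, so no pair could pass 0.05.

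Let-7a and let-7e were each in 4 of these 11 pairs, with let-7d, let-7f, let-7g and let-7i as their partners. Let-7g was also in 4, let-7f and let-7i in 3 each, let-7c and let-7d in 2 each, and let-7b and miR-98 in 0. The ratio of let-7a to let-7g was 1.204, 1.196 and 1.098 in RPL24 KD replicate 1, replicate 2 and the unnumbered library. In NC it was 1.002, 0.964 and 0.870 in the same order, so that let-7a stood above let-7g in each RPL24 KD library and near or below it in NC. The ratio of let-7e to let-7g was 0.283, 0.248 and 0.234 in RPL24 KD and 0.217, 0.188 and 0.180 in NC, a log2 difference of 0.39, the largest of the 11. By contrast the ratio of let-7a to let-7e overlapped between the groups, with a log2 difference of -0.08, and so did that of let-7g to let-7i, with -0.01. Let-7a, let-7c and let-7e against let-7g and let-7i gave 6 pairs, a set chosen after the values were seen. All 6 did not overlap, with log2 differences from 0.23 to 0.39, but this follows from the choice and is no further result.

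In shares of the family, let-7a went from 25.1% ± 0.973 (SD, n = 3) in NC to 27.9% ± 0.728 (SD, n = 3) after RPL24 KD, and let-7e from 5.17% ± 0.429 to 6.10% ± 0.489 (SD, n = 3). Let-7g had 26.6% ± 1.04 in NC and 24.0% ± 0.615 after RPL24 KD (SD, n = 3), and let-7i had 7.81% ± 0.239 and 7.11% ± 0.399 (SD, n = 3). The shares sum to the whole in each library, so these differences are not independent. The libraries measure RNA from the bulk of the cells, and fewer cells holding a miR cannot be told apart from less of it per cell.

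The 3p arms, the strands mostly discarded when a let-7 duplex is loaded, were scarce. Let-7d-3p took 10.6% of the reads of both arms of its hairpin over all libraries, let-7a-3p and let-7a-2-3p together 2.02%, and those of the other 7 members from 0.00821% to 1.59%. The 3p arms also tell some hairpins apart that share a 5p sequence. The hairpins of let-7a and let-7e are shown for this reason, 5′ to 3′ from RefSeq (GRCh38.p14), with the mature arms in capitals.

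MIRLET7A1: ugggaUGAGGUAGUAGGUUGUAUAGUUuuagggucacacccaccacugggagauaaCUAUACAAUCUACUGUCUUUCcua
MIRLET7A2: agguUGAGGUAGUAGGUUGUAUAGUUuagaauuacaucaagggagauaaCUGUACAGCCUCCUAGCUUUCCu
MIRLET7A3: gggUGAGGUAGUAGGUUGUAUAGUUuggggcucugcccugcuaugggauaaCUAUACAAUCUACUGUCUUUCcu
MIRLET7E: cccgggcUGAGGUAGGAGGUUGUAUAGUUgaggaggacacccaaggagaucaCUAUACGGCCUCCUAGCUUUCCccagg

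Let-7a-3p, the arm of MIRLET7A1 and MIRLET7A3, had from 91 to 173 counts per library, whereas let-7a-2-3p, the arm of MIRLET7A2, had 1 count in all 6 libraries. Arms of different hairpins may be kept to different degrees, so these counts do not give the share of let-7a that each hairpin made. Of the 11 listed 3p arms, 4 passed the filter, and 0 were DE, also with DESeq2 and limma-voom, with 0 at an unadjusted p under 0.05. Let-7a-3p had 276, 288 and 265.5 CPM in RPL24 KD and 247, 227.5 and 254 CPM in NC. It was the only one of the 4 whose groups did not overlap, against 27.5% of all miRs tested, so this is no result about the arms. The log2 fold change of let-7a-3p was 0.19 (standard error 0.112, 95% interval -0.05 to 0.43, adjusted p = 0.368, edgeR). This estimate was close to that of let-7a-5p, but its interval included 0. Let-7e-3p, with 3 to 18 counts per library, had a log2 fold change of 0.08 (95% interval -0.77 to 0.92), too wide to compare with its 5p arm. Let-7f-2-3p had 0.13 (95% interval -0.72 to 0.99) and let-7d-3p -0.40 (95% interval -0.98 to 0.17).

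Some let-7 hairpins are transcribed in a cluster with hairpins of the miR-99/100 and miR-125 families. Of the 13 mature miRs listed as such partners, 8 passed the filter, of which 1 was DE and higher, 0 were DE and lower and 7 were not DE. That one was miR-125a-5p, from the chromosome 19 cluster of let-7e, with 3584 ± 433 CPM (SD, n = 3) in RPL24 KD and 2727 ± 210 CPM (SD, n = 3) in NC. Its log2 difference of 0.39 had an adjusted p of 0.0261 in edgeR, where 3.33% of all miRs were DE and higher. Without RPL24 KD replicate 1, in which it was highest, the value was 0.29 (adjusted p = 0.116, edgeR). MiR-99b-5p of the same cluster had 10485, 9780 and 9610 CPM in RPL24 KD and 9734, 8672 and 8290 CPM in NC. The groups overlapped only through NC replicate 1, and the log2 fold change was 0.16 (95% interval 0.01 to 0.31, adjusted p = 0.185, edgeR). It was 0.23 without that library and 0.0986 without the unnumbered NC library. MiR-99b-3p had 0.03 and miR-125a-3p, with few counts, 0.39 (95% interval -0.23 to 1.005).

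The partners of let-7c and let-7a-2 gave other values. MiR-99a-5p, from the chromosome 21 cluster of let-7c, had a log2 fold change of 0.07 (95% interval -0.10 to 0.24), miR-125b-5p, which both clusters encode, -0.03 (95% interval -0.27 to 0.22), and miR-125b-2-3p -0.11 (95% interval -0.47 to 0.25). MiR-100-5p, from the chromosome 11 cluster of let-7a-2, had 71.3, 63.2 and 45.1 CPM in RPL24 KD and 73.5, 132.5 and 79.6 CPM in NC. Its groups did not overlap, which held for 2 of the 8 tested partners and for 27.5% of all miRs tested. The log2 fold change of miR-100-5p was -0.58 (95% interval -1.12 to -0.05, adjusted p = 0.185, edgeR). Without NC replicate 2, in which it was highest, the value was -0.32 (adjusted p = 0.434, edgeR). MiR-4763, whose hairpin lies with those of let-7a-3 and let-7b, had 0 counts in both arms in every library.

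Among the 158 miRs outside the family with a mean of at least 100 counts, those whose log2 CPM followed the summed members most closely over the 6 libraries were miR-99b-5p (Pearson r = 0.967), miR-30a-5p (r = 0.953) and miR-30a-3p (r = 0.900). These 6 points share their libraries, depth and scaling, and the correlations are given as a description. The log2 fold changes of miR-30a-5p and miR-30a-3p were 0.08 and 0.15, with adjusted p-values of 0.516 and 0.372 (edgeR).

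DE members numbered 0 with RLE scaling (5.83% of all miRs DE), total counts (7.78%), TMM computed without the members (5.83%), a mean of at least 100 counts (16.3%) and DESeq2 with its default filtering (5.12%). They numbered 2 without a filter (2.57%), 2 with the robust fit (9.44%), and, over the 4 numbered libraries, 3 with a replicate block (15.8%) and 0 without it (7.50%). Leaving out NC replicate 1 gave 2 DE members (6.11%), and leaving out NC replicate 2 (4.72%), the unnumbered NC library (10.0%), RPL24 KD replicate 2 (2.22%), the unnumbered RPL24 KD library (3.61%) or RPL24 KD replicate 1 (0%) gave 0. Across all of these settings, let-7a, let-7c and let-7e stayed above 0 and let-7g, let-7i and let-7b below 0. Let-7a ranged from 0.15 to 0.29, let-7e from 0.22 to 0.42 and let-7g from -0.13 to -0.06 on the log2 scale. The others came close to 0, with let-7c from 0.0056 to 0.226, let-7i from -0.166 to -0.0397 and let-7b from -0.256 to -0.0095. Members whose value was near 0 with all libraries, namely let-7d, let-7f and miR-98, changed sign.

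**Figure D3:**
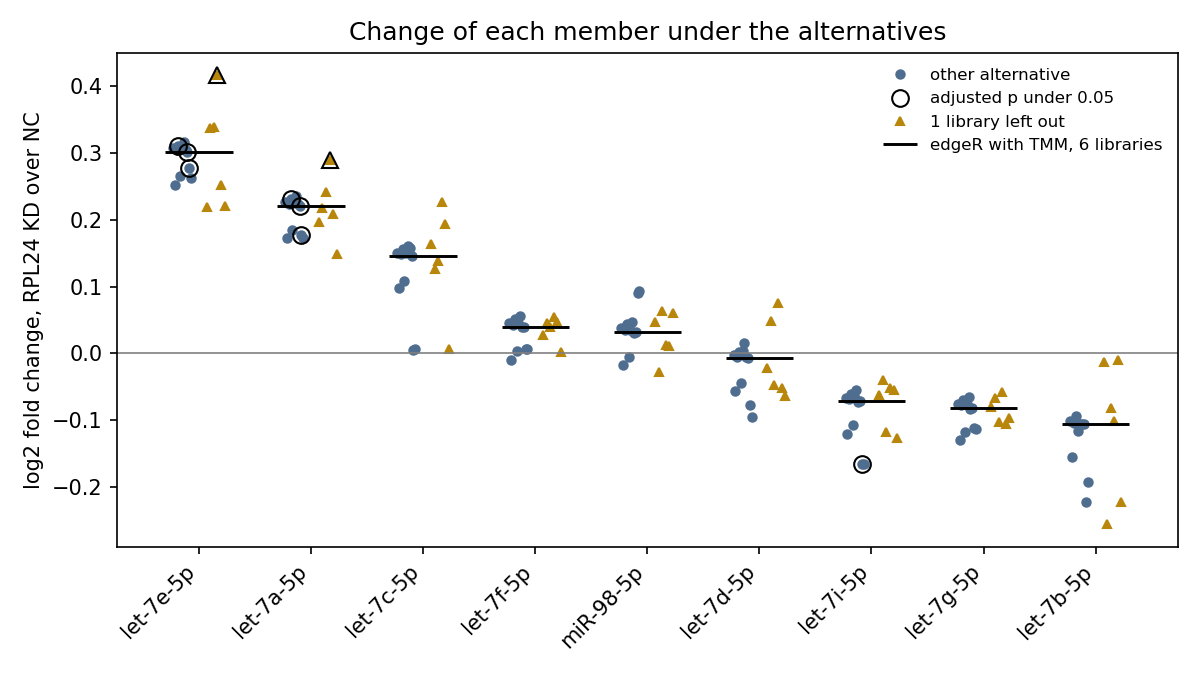
Log2 fold change of each member with all 6 libraries and edgeR (black line), with each library left out (triangles) and under the other alternatives (circles), where a larger open outline marks an adjusted p under 0.05. Such outlines appear for let-7e, let-7a and, with the replicate block, let-7i, and the values of let-7e and let-7a lie above 0 throughout.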

How the data were processed

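The authors checked the reads with FastQC 0.11.9 (version per the labels), used Flexbar for trimming and miRExpress for matching to miRBase, and deposited raw read counts per mature miR and library, without normalization or pooling. Groups of 4 libraries came from sample titles that match their columns, and those of the 2 unnumbered libraries from the KD or NC in the column name, since no title has their number. The whole table was fitted with edgeR 4.0.16 in R 4.3.3 (estimateDisp, then glmQLFit with legacy off), TMM normalization, filterByExpr (minimum count 10) and Benjamini-Hochberg adjustment over the 360 miRs tested. DE meant an adjusted p below 0.05. Standard errors and 95% intervals of fold changes, which include the spread between libraries, come from the F statistic and its degrees of freedom. DESeq2 1.42.0, limma 3.58.1, other scalings and filters and leaving out each library were alternatives. Those that left out libraries kept the 360 miRs. Libraries held 398721 to 611745 counts. Wilson intervals and floors reflect counting error alone, and reads are not independent molecules. The fit was tested on simulated data with equal spread in both groups, unlike these libraries. That test required only changes larger than those of the members to be found, so it does not bear on their small differences. All 9 members were named, with the 3p arms and cluster partners that passed the filter, the miRs of the same seed and the 3 miRs most like the summed members. Members and lists were chosen with earlier results of these data known. Sequences came from RefSeq and hosts from GENCODE 29.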

Additional observations from a re-analysis of the deposited data

How the results depend on the processing

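The number of DE members, 0 with edgeR on the 6 libraries, was 2 without a filter (let-7a and let-7e, where 2.57% of all miRs were DE), 2 with the robust fit (the same pair, 9.44%), and from 0 to 2 when each library was left out, where without NC replicate 1 it was 2 (6.11%). It was 3 with the replicate block over the 4 numbered libraries (let-7a, let-7e and let-7i, 15.8%) and 0 in the same libraries without the block. Over all 360 miRs, libraries of equal number showed little common deviation (correlation of deviations -0.14 for number 1 and 0.12 for number 2). With both numbers pooled this correlation was 0.009. In CPM, all members but let-7c and miR-98 moved the same way from replicate 1 to replicate 2 in both groups. The share of all miRs that did so was not counted, so this does not show a pairing. The standard error of let-7e in these libraries was 0.065 with the block and 0.093 without it. Whether equal numbers mark a pairing is not stated in the labels. The DE cluster partners, 1, ranged from 0 to 1 without one library. The members with a positive log2 fold change, 5, were 3 with total counts.

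Of 152 values of members under alternatives, 134 kept their sign and their call, 9 passed it and 9 changed sign. Let-7d became 0.0015 without a filter, 0.0039 with DESeq2 on the tested miRs, 0.0151 with its default filtering and from -0.0635 to 0.075 without one library. MiR-98 became -0.0175 with total counts, -0.00496 at mean counts of 100 or more and from -0.0274 to 0.0628 without one library, and let-7f -0.0095 with total counts. Of the arms and partners, miR-99b-3p became -0.0223 with total counts, -0.00995 at mean counts of 100 or more, -0.0356 with the block, -0.0398 without it and from -0.051 to 0.0825 without one library. MiR-125a-3p became -0.0871 with the block and -0.0384 without it, and miR-125b-5p 0.0442 and 0.0445, and from -0.101 to 0.0123 without one library. Leaving out one library gave from -0.243 to 0.417 for let-7e-3p, from -0.234 to 0.488 for let-7f-2-3p and from -0.0314 to 0.132 for miR-99a-5p. Why they changed was not tested. Depth limits let-7b and the 3p arms. Let-7b and the scarce 3p arms and partners have no value at mean counts of 100 or more.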
